A study of Mus musculus with 6 samples.

Results

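Translation initiation, elongation and release factors were followed in mouse bone marrow-derived Mφs in which the fragment 5′tRF-Glu(CTC), a piece of the 5′ portion of tRNA-Glu, was blocked before M2 polarization. The genes were chosen by name: protein-coding genes whose symbols begin with Eif1 to Eif6, Eef1 or Eef2, or are Etf1, Gspt1, Bzw1 or Bzw2, without the eIF2 kinases, and with at least 10 counts in 3 or more of the 6 libraries. Of 41549 genes listed, 76 carried such a name and 67 met every condition. The names also take in proteins that act on the factors, namely the eIF4E-binding proteins, the eEF2 kinase and the methyltransferases of eEF1A and eEF2. Of the 9 genes set aside, 4 were eIF2 kinases, 1 was not protein coding, and 4 (Eef1akmt3, Eif4a3l1, Eif4a3l2 and Eif4e1b) had between 0 and 4 counts in any library. Just inside the count minimum stood Eif4ebp3, with 20 to 30 counts per library.

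The cells came from wild type C57Bl/6 N mice aged 10 to 12 weeks, were grown from bone marrow for 7 days with M-CSF, and received either a control antisense oligonucleotide (Ctr) or an antisense oligonucleotide against 5′tRF-Glu(CTC) (αGlu) with lipofectamine. Both groups were then polarized for 48 h with IL-13 and IL-4, so that every library is from transfected, M2-polarized cells, and no unpolarized or untransfected library was analysed here. Poly(A) RNA was sequenced from 3 libraries of each group, which the study describes as independent experiments.

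In translation initiation, eIF2 carries the initiator tRNA to the small ribosomal subunit and is recharged by its exchange factor eIF2B, while eIF1, eIF1A, eIF3 and eIF5 hold the scanning complex together. The eIF4 proteins bring the mRNA: eIF4E binds the cap, eIF4G bridges, eIF4A unwinds, and the eIF4E-binding proteins compete with eIF4G for eIF4E. eEF1A then delivers aminoacyl-tRNAs and eEF2 moves the ribosome along, and eRF1 and eRF3 (Etf1 and Gspt1) end the chain. Growth signals reach this machinery through mTORC1, which acts on the eIF4E-binding proteins and, through S6 kinase, on eEF2 kinase.

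The perturbation is shown here as the targeted sequence and the oligonucleotide used against it, both written 5′ to 3′ as DNA letters. Capitals in the target mark bases 2 to 21, which the inhibitor of 20 bases can pair with.
5′tRF-Glu(CTC) target: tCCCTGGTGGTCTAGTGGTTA
αGlu inhibitor: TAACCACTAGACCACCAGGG
In the GENCODE M21 transcripts of 66 members, the longest stretch able to pair with this inhibitor without a mismatch had a median of 7 bases, the same as the median over 11177 tested genes. The longest was 11 bases, in Eif4e2, and only 0.743% of tested genes had a stretch at least as long. Eif4e2 itself had overlapping groups, with a log2 fold change (αGlu over Ctr) of -0.03, or 0.01 without library αGlu 1. Bzw2 and Eif4a1, described below, each had 8 bases, a length reached by 48.4% of tested genes.

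The libraries held 17912831 to 30386653 counts, and 65 of the 67 members had at least 100 counts in every library, the lowest value being 17 and the highest 116890 counts. Close copies, such as Eif1 and Eif1b, Eif3j1 and Eif3j2, or Eef1a1 and its pseudogenes, can share reads. At the loci of 19 members another protein-coding gene name is annotated, for 14 of them on the opposite strand. The values of such members are less certain, except that for Eef1aknmt the other name, Mettl13, is an older name of the same gene. The library kit was a stranded one, which can separate opposite strands if the counting used the strand, and that setting is not given. The cells had the markers of Mφs. All 10 macrophage genes checked were above 1 CPM, and lymphocyte, fibroblast, dendritic cell and mast cell or basophil lists had no gene with a mean above 1 CPM, the counts scaled to a common library total with TMM factors. The summed neutrophil list stood at 106 to 160 CPM in Ctr and 186 to 609 CPM in αGlu, almost wholly Csf3r, the G-CSF receptor. In that list 3 of 8 genes had a mean above 1 CPM, Ly6g was at 0 in every library and Elane reached at most 0.167 CPM, and the part of Csf3r-bearing cells in the results below was not tested. In bulk RNA, fewer cells of a kind and less RNA per cell cannot be told apart.

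One library stands apart. Across all genes αGlu 1 correlated with αGlu 2 and αGlu 3 at 0.929 on the log2 CPM scale, but with the Ctr libraries at 0.966 to 0.982, whereas αGlu 2 and αGlu 3 correlated with each other at 0.992. Differences between the groups are therefore given with all 6 libraries and again without αGlu 1. Leaving out the αGlu library nearest to Ctr tends to raise the number of differences by its construction.

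Taken as a class, the members differed between αGlu and Ctr at shares near or below those of genes at large. With all 6 libraries, edgeR's quasi-likelihood test put none of the 67 members, and none of 11933 tested genes, under an adjusted p of 0.1 (0.0% of genes called). The lowest adjusted p of a member was 0.149. At an unadjusted p under 0.05, 5 members were higher and 5 lower in αGlu (7.46% each), against 12.7% and 11.9% of all genes tested. DESeq2 on the same counts called 1 member higher and 4 lower, with 7.77% and 8.13% of all genes called in those directions. These were Eef1akmt2, above Ctr in every αGlu library, and Eef1a2, Eif4a1, Eif5a and Bzw2, below Ctr in every αGlu library.

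Every αGlu library was above every Ctr library for 6 members (8.96%, against 14.2% of all genes) and below every Ctr library for 11 (16.4%, against 15.9%). Without αGlu 1, edgeR called 17 members higher (25.4%) and 14 lower (20.9%), where the shares over all genes were 23.5% and 25.6%. Of the members called there, 14 had groups that did not overlap in all 6 libraries and 17 had groups that overlapped. By the overlap count, 24 members were above and 22 below all Ctr libraries without αGlu 1, where 33.6% and 32.2% of all genes were, and 14 were above without Ctr 3, where 21.1% of all genes were. The median log2 fold change of the members was -0.03, against 0.02 over all genes, and their median absolute log2 fold change was 0.143, against 0.239. Without αGlu 1 the medians were -0.01 and 0.01, and the median absolute values 0.223 and 0.316. Of the members, 28 had a log2 fold change above 0 and 39 below, with 1 above 0.5 and 4 below -0.5, and without αGlu 1 the split was 31 above 0 and 36 below. When counts were scaled by library size only, the all-gene median became 0.10 and the members' split turned to 43 above 0 and 24 below, with a members' median of 0.06, still under that of all genes.

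The place of αGlu 1 can be read member by member. It lay within the Ctr range for 33 members, while αGlu 2 did so for 13 and αGlu 3 for 17. Over all genes the shares within the Ctr range were 42.6%, 23.0% and 23.5% for αGlu 1, 2 and 3, close to the 49.3%, 19.4% and 25.4% of the members. Members took between 1.28% and 1.47% of all counts in each library, the lowest share being that of αGlu 2.

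**Figure D1:**
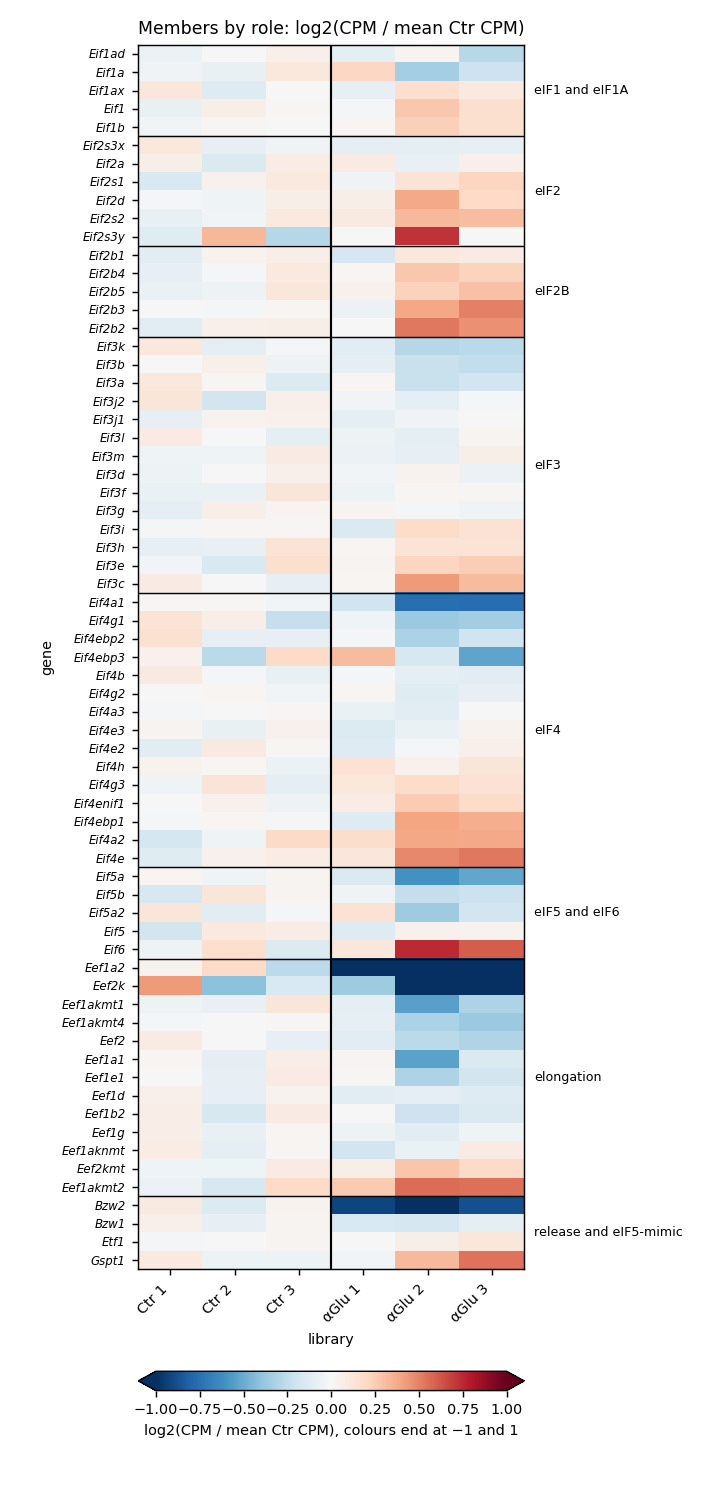
Heat map of the 67 members in rows, grouped by role, and the 6 libraries in columns; colour gives log2 of CPM over the mean Ctr CPM, ending at -1 and 1. The αGlu 2 and αGlu 3 columns look alike, αGlu 1 is mostly paler, with Eef1a2 and Bzw2 as exceptions, and the eIF3 rows are the palest.

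Levels are compared between genes per length, as TPM, which is scaled to transcript length. Eef1a1 stood far above all others with 5735 ± 352 TPM in Ctr and 5287 ± 956 TPM in αGlu (SD, n = 3), followed by Eef2 with 1516 ± 108 TPM in Ctr and 1376 ± 62.7 TPM in αGlu (SD, n = 3). Then came Eif4a1 and Eif5a with means over all libraries of 588 and 575 TPM. In all, 17 members lay between 100 and 1000 TPM, 41 lay between 10 and 100, and 7 were under 10 TPM, among them Eif4ebp3, Eef2k, Eif5a2 and Bzw2. The median member had 61.7 TPM.

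The eIF1 and eIF1A role, 5 members grouped by name, held small differences. The factors eIF1 and eIF1A guide start-codon choice, while Eif1ad is counted here by its name only. Eif1b, a near copy of Eif1, had 28.4, 29.3 and 29.0 CPM in Ctr 1 to 3 and 29.4, 34.2 and 32.2 CPM in αGlu 1 to 3. Its groups did not overlap, with a log2 fold change of 0.14 ± 0.080 (SE) and an edgeR adjusted p of 0.293, or 0.0683 without αGlu 1. Eif1 itself, the most abundant of the role, had 156, 171 and 166 CPM in Ctr 1 to 3 and 163, 198 and 183 CPM in αGlu 1 to 3. Its αGlu 1 value lay inside the Ctr range, the other two above it, and the log2 fold change of 0.14 ± 0.10 (SE) had an adjusted p of 0.395 by edgeR, or 0.0983 without αGlu 1. The Eif1b to Eif1 ratio on the TPM scale stayed between 0.320 and 0.339 in all libraries.

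The 3 subunits of eIF2 and its relatives leaned upward by little, with 5 of 6 log2 fold changes above 0 and a median of 0.17, or 4 of 6 and 0.23 without αGlu 1. Eif2s2, encoding the β subunit, had 116, 119.9 and 131 CPM in Ctr 1 to 3 and 130.4, 153 and 152 CPM in αGlu 1 to 3. Only the αGlu 1 value fell inside the Ctr range, and the log2 fold change was 0.25 ± 0.10 (SE) with an edgeR adjusted p of 0.201, or 0.0277 without that library. Eif2d, a non-canonical initiation and recycling factor that is no eIF2 subunit, had 21.6, 21.2 and 22.7 CPM in Ctr 1 to 3 and 22.8, 28.5 and 25.1 CPM in αGlu 1 to 3. Its groups did not overlap, and its adjusted p of 0.238 by edgeR went to 0.0412 without αGlu 1.

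Eif2s1, the α subunit whose phosphorylation slows initiation, had 75.9, 86.8 and 90.3 CPM in Ctr 1 to 3 and 82.4, 92.5 and 98.1 CPM in αGlu 1 to 3. The groups overlapped and the test was not passed with or without αGlu 1 (edgeR adjusted p 0.520 and 0.210). Eif2s3x, the X-linked γ subunit and the most abundant of the role, had 116, 102 and 105 CPM in Ctr 1 to 3 and 101, 102 and 102 CPM in αGlu 1 to 3, a log2 fold change of -0.085 ± 0.080 (SE), or -0.087 ± 0.087 (SE) without αGlu 1. It did not pass in edgeR (adjusted p 0.507 and 0.459). Its Y-linked copy Eif2s3y varied most in this role, with 40.8, 55.8 and 36.2 CPM in Ctr 1 to 3 and 44.4, 73.0 and 44.3 CPM in αGlu 1 to 3. In both groups library 2 was the highest.

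All 5 subunits of eIF2B, the exchange factor for eIF2, had log2 fold changes above 0 (median 0.19, from 0.01 to 0.35), under RLE factors and library size alone as well, yet no subunit had groups that did not overlap. Without αGlu 1 all 5 were again above 0 (median 0.26) and 4 of the 5 passed, where 23.5% of all genes were called higher. Eif2b2, the β subunit and the most abundant of the role, had 35.7, 39.9 and 40.1 CPM in Ctr 1 to 3 and 38.7, 55.7 and 53.0 CPM in αGlu 1 to 3. Here αGlu 1 sat among the Ctr libraries while αGlu 2 and αGlu 3 were well above them, and the log2 fold change of 0.35 ± 0.15 (SE) (edgeR adjusted p 0.212) became 0.49 ± 0.081 (SE) without αGlu 1 (adjusted p 0.00440).

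Eif2b5, the catalytic ε subunit, had 37.4, 37.9 and 42.4 CPM in Ctr 1 to 3 and 40.4, 46.0 and 48.1 CPM in αGlu 1 to 3. The pattern was the same but smaller, with a log2 fold change of 0.19 ± 0.10 (SE) and an edgeR adjusted p of 0.257, or 0.0499 without αGlu 1. Eif2b3 had a log2 fold change of 0.30 ± 0.16 (SE) with all 6 libraries and 0.44 ± 0.10 (SE) without αGlu 1 (edgeR adjusted p 0.285 and 0.0150). Eif2b4 had 0.17 ± 0.10 (SE) and 0.24 ± 0.088 (SE) (adjusted p 0.313 and 0.0716). Eif2b1 passed in neither fit (0.010 ± 0.11 (SE) and 0.087 ± 0.086 (SE)).

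The eIF3 genes, which build the scaffold that keeps the small subunit ready for mRNA, varied least. Their median absolute log2 fold change was 0.06 over 14 members (0.10 without αGlu 1), the range was -0.22 to 0.27, and 12 of 14 had overlapping groups. Eif3k had 104, 91.2 and 96.3 CPM in Ctr 1 to 3 and 90.5, 79.7 and 80.6 CPM in αGlu 1 to 3. Every αGlu library was below every Ctr library, with a log2 fold change of -0.22 ± 0.092 (SE) and an edgeR adjusted p of 0.208, or 0.0412 without αGlu 1.

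Eif3b, a core subunit, had 230.0, 239.7 and 223 CPM in Ctr 1 to 3 and 217, 198 and 195 CPM in αGlu 1 to 3. It also did not overlap, at -0.18 ± 0.091 (SE) and an edgeR adjusted p of 0.256, or 0.0588 without αGlu 1. Eif3h, the most abundant subunit per length, had 125, 126 and 146 CPM in Ctr 1 to 3 and 134, 146 and 146 CPM in αGlu 1 to 3. Its groups overlapped (edgeR adjusted p 0.524, or 0.315 without αGlu 1). Eif3c, another core subunit, had overlapping groups and a log2 fold change of 0.27 ± 0.13 (SE) with all 6 libraries (edgeR adjusted p 0.261), or 0.37 ± 0.091 (SE) without αGlu 1 (adjusted p 0.0208). Of the 3 eIF3 genes that passed without αGlu 1, 1 was higher and 2 were lower. Over all genes, 23.5% were called higher and 25.6% lower in that fit.

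The eIF4 group split by direction. Eif4a1, the main cap-complex helicase (chr11:69666936-69672423, minus strand, GRCm38), had 989.6, 989.5 and 964 CPM in Ctr 1 to 3 and 857, 583 and 579 CPM in αGlu 1 to 3. The group means were 981 ± 14.9 CPM in Ctr and 673 ± 159 CPM in αGlu (SD, n = 3). No αGlu library reached a Ctr library, and αGlu 1 lay between the Ctr and the other αGlu values. The level was 1.46-fold lower, a log2 fold change of -0.54 ± 0.19 (SE) with an edgeR adjusted p of 0.174, and -0.76 ± 0.085 (SE) without αGlu 1 (adjusted p 9.55e-04).

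Its paralogue Eif4a2 had 143, 157 and 185 CPM in Ctr 1 to 3 and 183, 212 and 211 CPM in αGlu 1 to 3. The αGlu 1 value lay just under the highest Ctr value, and the log2 fold change was 0.32 ± 0.13 (SE) (edgeR adjusted p 0.1996), or 0.38 ± 0.12 (SE) without αGlu 1 (adjusted p 0.0489). Eif4a2 was not among the genes singled out by rule, and is given as the partner of Eif4a1, chosen after its values were seen. The cap-binding protein gene Eif4e had 72.01, 80.5 and 82.2 CPM in Ctr 1 to 3 and 84.4, 109 and 112 CPM in αGlu 1 to 3. All αGlu libraries were above all Ctr libraries, at a log2 fold change of 0.38 ± 0.13 (SE) and an edgeR adjusted p of 0.174, and of 0.50 ± 0.086 (SE) without αGlu 1 (adjusted p 0.00557).

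Of the genes for eIF4E-binding proteins, Eif4ebp1 had 27.2, 27.8 and 27.3 CPM in Ctr 1 to 3 and 25.1, 36.0 and 35.2 CPM in αGlu 1 to 3. The αGlu 1 value was the lowest of all 6 and the other two αGlu values the highest, so the log2 fold change of 0.23 ± 0.15 (SE) had an edgeR adjusted p of 0.348, against 0.37 ± 0.066 (SE) and 0.00610 without αGlu 1. Eif4ebp2 had 105, 88.9 and 89.2 CPM in Ctr 1 to 3 and 93.7, 75.7 and 82.2 CPM in αGlu 1 to 3. It ran lower, at -0.17 ± 0.12 (SE) and -0.26 ± 0.10 (SE) without αGlu 1, with edgeR adjusted p-values of 0.371 and 0.0909. Eif4g1, the scaffold, had 439, 419 and 341 CPM in Ctr 1 to 3 and 388, 309 and 314 CPM in αGlu 1 to 3. Its groups overlapped through αGlu 1, with log2 fold changes of -0.25 ± 0.15 (SE) and, without αGlu 1, -0.37 ± 0.13 (SE) (edgeR adjusted p 0.332 and 0.0617).

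Over the 15 members of the eIF4 group, 4 were called higher and 3 lower without αGlu 1, where 23.5% and 25.6% of all genes were. Those higher were Eif4e, Eif4a2, Eif4ebp1 and Eif4enif1, the last encoding a protein that carries eIF4E into the nucleus.

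**Figure D2:**
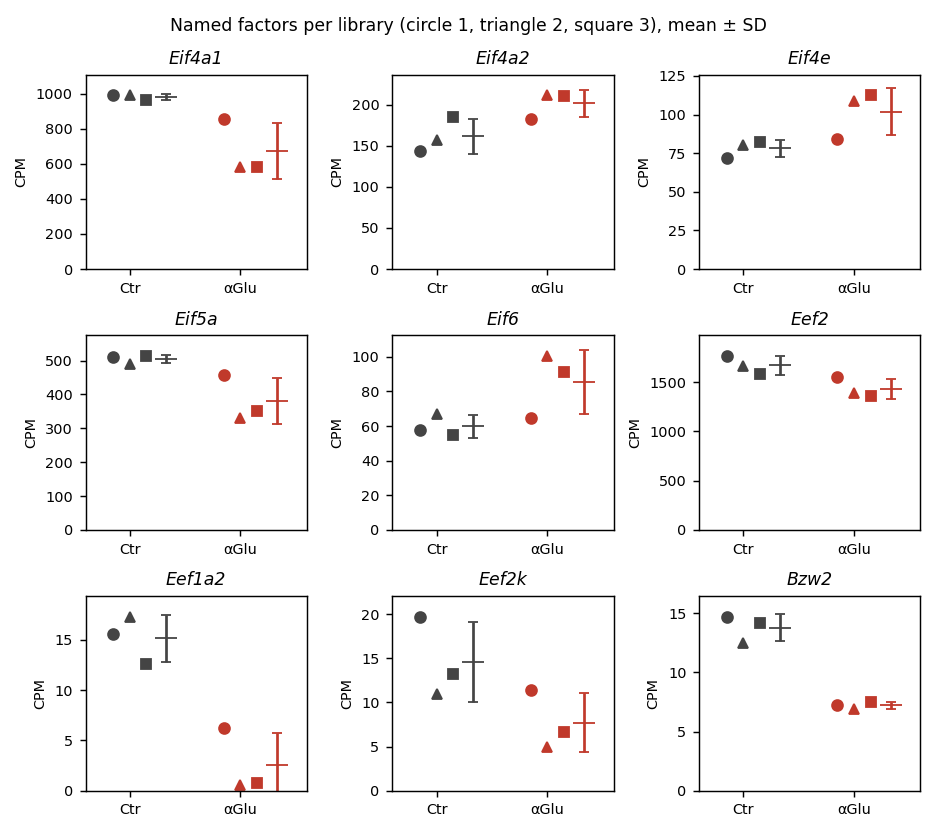
CPM of 9 factors in each library (vertical axes from 0), with Ctr in grey and αGlu in red, symbols for library number, and bars for the mean and SD of 3 libraries, cut at 0. Eif4a1, Eif5a, Eef2, Eef1a2 and Bzw2 lie below Ctr in every αGlu library, Eif4e lies above, and only for Bzw2 is αGlu 1 level with αGlu 2 and 3.

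Among eIF5 and eIF6 genes, Eif5a and Eif6 lay in opposite directions. Eif5a, which encodes the hypusine-bearing factor that helps ribosomes past difficult peptide bonds, had 511, 490.0 and 513 CPM in Ctr 1 to 3 and 457, 332 and 352 CPM in αGlu 1 to 3. The means were 504 ± 12.5 CPM in Ctr and 380.3 ± 67.6 CPM in αGlu (SD, n = 3). Its groups did not overlap, with a log2 fold change of -0.41 ± 0.15 (SE) and an edgeR adjusted p of 0.181, and -0.57 ± 0.086 (SE) (adjusted p 0.00323) without αGlu 1. Eif6, which keeps the large subunit from joining too early, had 57.7, 67.2 and 54.6 CPM in Ctr 1 to 3 and 64.8, 100.4 and 91.1 CPM in αGlu 1 to 3. The αGlu 1 value lay within the Ctr range and the other two above it, giving 0.51 ± 0.18 (SE) with an edgeR adjusted p of 0.175, and 0.67 ± 0.11 (SE) (adjusted p 0.00413) without αGlu 1. Eif5, Eif5b and Eif5a2 did not pass in either fit.

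Genes of the elongation role, grouped by name, leaned lower, with 11 of 13 log2 fold changes below 0. The role takes in the eEF2 kinase and the methyltransferases, and Eef1e1 is counted by its name only. Of the 13, 5 were below all Ctr libraries and 1 above, where 15.9% and 14.2% of all genes were. Below 0 were 9 of the 13 with library size alone, and 10 without αGlu 1. Without αGlu 1, 6 were called lower and 2 higher, where 25.6% and 23.5% of all genes were. The most different member was Eef1a2, the muscle- and neuron-type form of eEF1A (chr2:181147653-181157014, minus strand), which had 15.5, 17.3 and 12.6 CPM in Ctr 1 to 3 and 6.25, 0.535 and 0.770 CPM in αGlu 1 to 3. The αGlu 1 value was below every Ctr value but about an order of magnitude above αGlu 2 and αGlu 3. The last 2 values of Eef1a2 rest on 17 and 21 counts, against 272 to 413 counts in Ctr. The level was 6.32-fold lower, a log2 fold change of -2.66 ± 0.92 (SE) (edgeR adjusted p 0.174), or -4.54 ± 0.24 (SE) without αGlu 1 (adjusted p 5.93e-05).

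The dominant form Eef1a1 had 4798, 4459 and 4964 CPM in Ctr 1 to 3 and 4827, 3271 and 4287 CPM in αGlu 1 to 3. Its groups overlapped, and αGlu 2 was the lowest library (edgeR adjusted p 0.577, or 0.114 without αGlu 1). Eef2, the translocation factor, had 1763, 1667 and 1578 CPM in Ctr 1 to 3 and 1552, 1387 and 1359 CPM in αGlu 1 to 3. The αGlu libraries were all below the Ctr libraries, at a log2 fold change of -0.22 ± 0.14 (SE) and an edgeR adjusted p of 0.346, or 0.0557 without αGlu 1.

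Eef2k, encoding the kinase that inactivates eEF2, had 19.7, 10.99 and 13.2 CPM in Ctr 1 to 3 and 11.4, 5.01 and 6.68 CPM in αGlu 1 to 3. The Ctr libraries spread widely and αGlu 1 lay among them, with a log2 fold change of -0.93 ± 0.36 (SE) (edgeR adjusted p 0.192), or -1.33 ± 0.28 (SE) without αGlu 1 (adjusted p 0.0114). In both groups library 1 was the highest and library 2 the lowest. A fit with a block for the library number gave -0.97 and an edgeR adjusted p of 0.129. Of the methyltransferase genes, Eef1akmt2 had 6.496, 6.06 and 7.80 CPM in Ctr 1 to 3 and 8.14, 9.98 and 9.94 CPM in αGlu 1 to 3. It was above Ctr in all αGlu libraries, at 0.47 ± 0.15 (SE) and an edgeR adjusted p of 0.164, or 0.0245 without αGlu 1. Its annotated locus shares 25217 bases with Fgfr2 on the same strand. Eef1akmt1 and Eef1akmt4, which act on other lysines of eEF1A, were below Ctr in every αGlu library. Eef1akmt1 had a log2 fold change of -0.31 ± 0.14 (SE), or -0.42 ± 0.12 (SE) without αGlu 1 (edgeR adjusted p 0.233 and 0.0349). Eef1akmt4 had -0.25 ± 0.11 (SE), or -0.35 ± 0.092 (SE) without αGlu 1 (adjusted p 0.218 and 0.0261).

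In the last role, Bzw2, an eIF5-mimic protein gene (chr12:36091835-36158080, minus strand), had 14.7, 12.5 and 14.2 CPM in Ctr 1 to 3 and 7.28, 6.89 and 7.48 CPM in αGlu 1 to 3. The means were 13.8 ± 1.14 CPM in Ctr and 7.22 ± 0.299 CPM in αGlu (SD, n = 3). All 3 αGlu libraries, αGlu 1 included, sat close together at about the same level, well below every Ctr library. Its level was 1.91-fold lower in αGlu, or, as a log2 fold change, -0.93 ± 0.11 (SE), and -0.94 ± 0.12 (SE) without αGlu 1. Its unadjusted p of 1.25e-04 was the smallest of any member, with an adjusted p of 0.149 over all genes by edgeR, 0.00158 without αGlu 1, and 3.26e-07 by DESeq2. The Bzw2 locus shares 967 bases with Ankmy2 on the opposite strand.

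Its paralogue Bzw1, which competes with eIF5 in the same way and is the most abundant of the role, had 215, 197 and 211 CPM in Ctr 1 to 3 and 187, 185 and 195 CPM in αGlu 1 to 3. The groups did not overlap but differed by -0.14 ± 0.085 (SE) only, with an edgeR adjusted p of 0.331, or 0.257 without αGlu 1. Gspt1, encoding release factor eRF3, had 109.9, 99.4 and 99.5 CPM in Ctr 1 to 3 and 101, 129 and 150.0 CPM in αGlu 1 to 3. It was higher in αGlu 2 and αGlu 3 only, at 0.30 ± 0.16 (SE) (edgeR adjusted p 0.271), or 0.43 ± 0.10 (SE) without αGlu 1 (adjusted p 0.0163). Etf1, encoding eRF1, had 140.3, 142 and 145 CPM in Ctr 1 to 3 and 142, 148 and 154 CPM in αGlu 1 to 3. Its log2 fold change was 0.056 ± 0.076 (SE), with an edgeR adjusted p of 0.650, or 0.429 without αGlu 1.

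**Figure D3:**
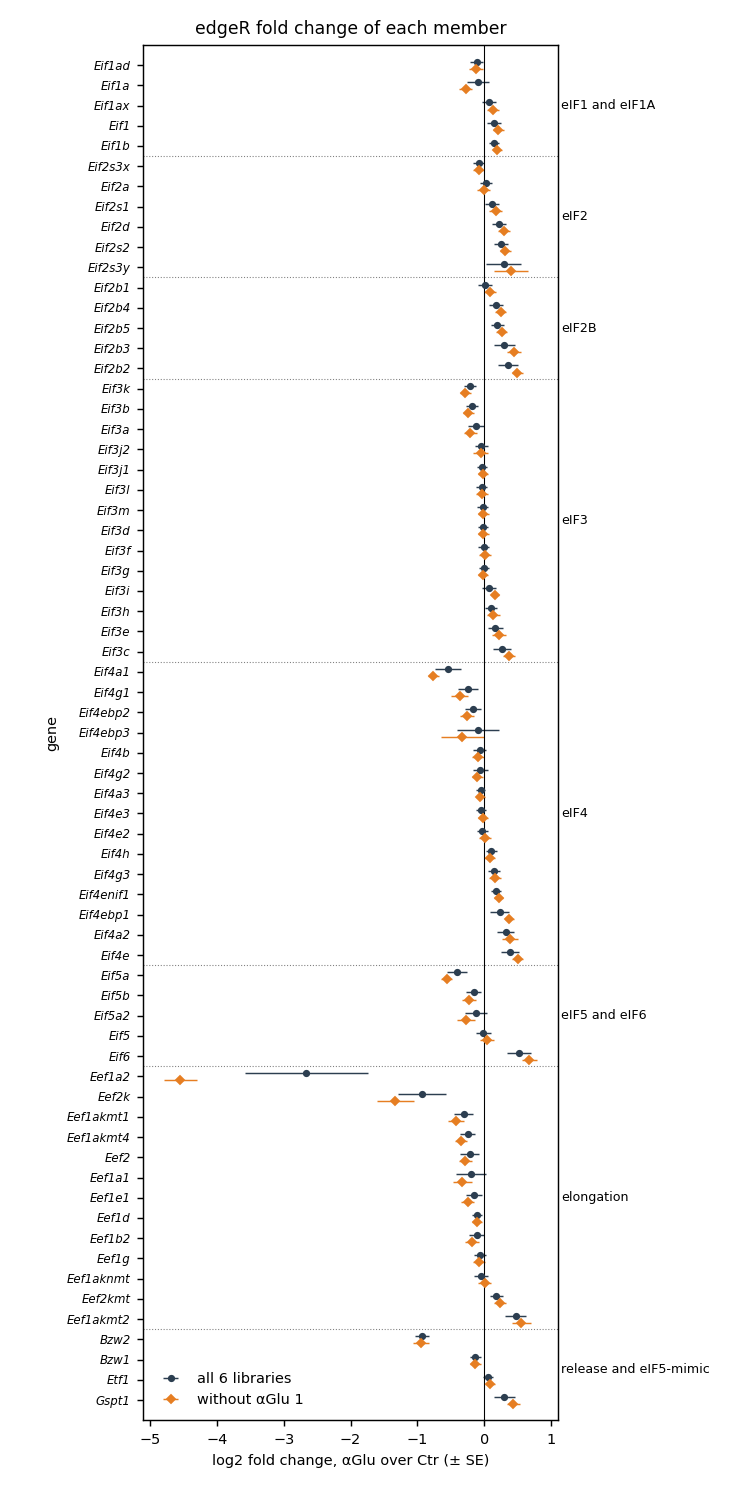
edgeR log2 fold change, αGlu over Ctr, with its SE for each of the 67 members on the horizontal axis, from all 6 libraries (dark circles) and without αGlu 1 (orange diamonds). Most members lie within 0.5 of 0, Eef1a2, Eef2k, Bzw2 and Eif4a1 lie furthest below, and only Eef1a2 shifts by more than 1 between the fits.

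Ratios of related genes, taken on the TPM scale within each library, need no scaling between libraries. Eif4a2 over Eif4a1 was 0.118, 0.129 and 0.156 in Ctr 1 to 3 and 0.174, 0.295 and 0.296 in αGlu 1 to 3. Each αGlu library was above each Ctr library, and αGlu 2 and αGlu 3 were nearly equal. Bzw2 over Bzw1 was 0.0507, 0.0473 and 0.0499 in Ctr 1 to 3 and 0.0290, 0.0278 and 0.0285 in αGlu 1 to 3. Here all αGlu libraries were alike and the groups were far apart compared with their spread. Eef1a2 over Eef1a1 was 0.00387, 0.00463 and 0.00304 in Ctr 1 to 3 and 0.00155, 1.96e-04 and 2.15e-04 in αGlu 1 to 3. It was a small fraction in every library, and smaller in αGlu.

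Eif4e2, a second cap-binding protein gene, relative to Eif4e was 0.787, 0.811 and 0.753 in Ctr 1 to 3 and 0.665, 0.555 and 0.564 in αGlu 1 to 3. Eif4g3 over Eif4g1 was 0.162, 0.191 and 0.201 in Ctr 1 to 3 and 0.203, 0.269 and 0.258 in αGlu 1 to 3. Both kept their groups apart, the first lower and the second higher in αGlu, although in Eif4g3 αGlu 1 was close to Ctr 3. Eif4e2 by itself hardly differed (log2 fold change -0.03), whereas Eif4e was higher in αGlu, as given above. Eif4ebp1 over Eif4ebp2 was 0.684, 0.825 and 0.805 in Ctr 1 to 3 and 0.706, 1.25 and 1.13 in αGlu 1 to 3. It overlapped between groups through αGlu 1. The pairs are shown in the plot of paralogue ratios, and of the 13 ratios computed, 3 were above and 4 below Ctr in every αGlu library. For single genes the shares were 14.2% and 15.9%, and no share was computed over other gene pairs. Several ratios use members described above, such as Eif4a1, Bzw2 and Eef1a2, and so repeat those values in part.

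**Figure D4:**
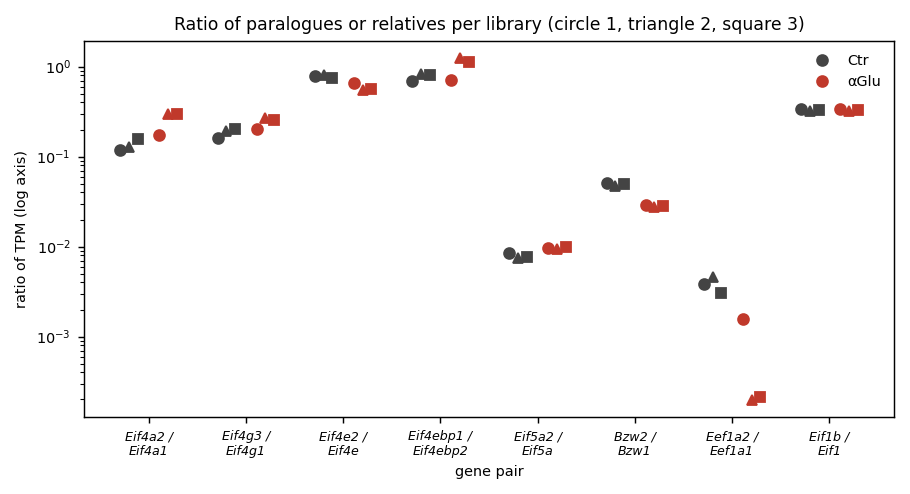
Ratio of TPM values within each library for 8 pairs of related genes, on a log axis, Ctr in grey and αGlu in red with symbols for library number. The Eif4a2 over Eif4a1 ratio is higher and the Bzw2 over Bzw1 and Eef1a2 over Eef1a1 ratios are lower in every αGlu library, while Eif1b over Eif1 does not separate the groups.

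Other genes of translation were listed as background: 20 for cap and tail binding, scanning and reinitiation, 21 for kinases and phosphatases of the factors, and 20 for modification, ribosome rescue and selenocysteine. With all 6 libraries none of the 60 tested passed in edgeR (adjusted p at least 0.151). At an unadjusted edgeR p under 0.05, 4 were higher and 4 lower, where 12.7% and 11.9% of all genes were. DESeq2 called 2 of the 60 higher and 2 lower, against 7.77% and 8.13% of all genes. Without αGlu 1, 16 of the 60 were called higher and 14 lower, near the 23.5% and 25.6% of all genes. The gene left out by the low-count filter was Ddit4, an mTORC1 inhibitor gene, with 0.409, 0.167 and 0.278 CPM in Ctr 1 to 3 and 0.115, 3.998 and 2.64 CPM in αGlu 1 to 3. It was higher in αGlu 2 and αGlu 3 only, and was called higher by DESeq2 (log2 fold change 2.98, adjusted p 0.0526) and by edgeR without αGlu 1 (3.53 ± 0.40 (SE), adjusted p 0.00106). Ddit4 was named after its values were seen. The list of cytosolic ribosomal protein genes, 78 tested, had a median log2 fold change of 0.00 and a median absolute value of 0.09, with 4 called higher and 8 lower without αGlu 1 (median -0.02). The 22 aminoacyl-tRNA synthetase genes had a median of 0.13, with 9 called higher and 2 lower without αGlu 1 (median 0.17). For these 2 lists too, the shares over all genes were 23.5% higher and 25.6% lower.

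Among the 60 other translation genes tested, the 3 with the smallest unadjusted p were Pdcd4, Sesn2 and Rps6kb2. Pdcd4, an inhibitor of eIF4A, had 20.2, 15.3 and 15.1 CPM in Ctr 1 to 3 and 10.7, 7.24 and 6.86 CPM in αGlu 1 to 3. It was below Ctr in every αGlu library, at -1.03 ± 0.22 (SE) and an edgeR adjusted p of 0.151, or 0.00166 without αGlu 1. Sesn2, a stress-induced regulator of mTORC1, had 13.1, 11.1 and 14.1 CPM in Ctr 1 to 3 and 17.2, 32.8 and 28.7 CPM in αGlu 1 to 3. It was above Ctr in every αGlu library, at 1.04 ± 0.25 (SE) and an edgeR adjusted p of 0.156, or 5.63e-04 without αGlu 1. Rps6kb2, an S6 kinase gene, had 14.1, 15.5 and 14.99 CPM in Ctr 1 to 3 and 17.3, 20.5 and 18.999 CPM in αGlu 1 to 3. It too was above Ctr throughout, at 0.35 ± 0.10 (SE) and an edgeR adjusted p of 0.159, or 0.0132 without αGlu 1.

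RefSeq promoters of GRCm38.p6, 250 bases before to 50 after each annotated start, were at hand for 52 members. Not in that table were Eef1akmt1, Eef1d, Eef1g, Eif1a, Eif2b3, Eif3e, Eif3h, Eif3i, Eif3j2, Eif4e3, Eif4ebp1, Eif4ebp3, Eif4g2, Eif6 and Etf1. Of 5 sequence features counted on both strands, the E-box CACGTG was the most frequent relative to tested genes. It was in 15 of 52 member promoters (28.8%), against 12.1% of 9395 tested genes and 8.09% of all 27025 genes. The others were CCGGAAGT (15.4% of members, 9.78% of tested genes), CCAAT (32.7% and 43.3%), TTGCATCA (0.0% and 0.756%) and, on the transcript strand, a C with at least 4 further C or T that begins within 3 bases of the start (17.3% and 15.3%).

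For some members with the E-box, the 30 bases around 1 copy are given, the motif in capitals. They were picked because several of the lower members above are among them, so they do not stand for all 15. Eif1b and Eif4h, which also have the E-box and were above every Ctr library, are not printed.
Bzw2, chr12:36156899-36156928, minus strand: gacttctgtgggCACGTGcggaggcattgg
Eif4a1, chr11:69672595-69672624, minus strand: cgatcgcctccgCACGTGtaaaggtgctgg
Eif5a, chr11:69920791-69920820, minus strand: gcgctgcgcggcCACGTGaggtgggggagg
Eef2, chr10:81176576-81176605, plus strand: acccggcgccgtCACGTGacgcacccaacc
Eef2k, chr7:120842788-120842817, plus strand: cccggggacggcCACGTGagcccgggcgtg
Eif3k, chr7:28981915-28981944, minus strand: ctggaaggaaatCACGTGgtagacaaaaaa
Eif4e, chr3:138527192-138527221, plus strand: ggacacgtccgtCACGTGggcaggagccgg
The motifs begin 91, 189, 178, 43, 31, 44 and 64 bases before an annotated RefSeq start of these genes, in that order. For Bzw2 the window lies inside the GENCODE locus given above, which extends further upstream than that RefSeq start. Eif4e has a further CACGTG 228 bases before its start, and Eif5a has another at chr11:69921443-69921472, before other annotated starts.

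Of the 15 members with the E-box, 12 (80.0%) had a log2 fold change below 0 (median -0.22), 6 (40.0%) were below and 3 (20.0%) above every Ctr library. Of all 1139 tested genes with it, 51.7% had a log2 fold change below 0, 17.9% were below and 12.4% above every Ctr library. Of the 37 members without it, 19 had a log2 fold change below 0 (median -0.01) and 3 lay on each side. Over all tested genes the medians with and without the E-box were -0.01 and 0.02. Without αGlu 1, 10 of the 15 members with it were below 0 (median -0.28) and 18 of the 37 without it (median 0.01), against 52.8% and 48.0% of tested genes (medians -0.03 and 0.02). These are descriptions of letters in a window, not of binding.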

How the data were processed

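Per the study's methods and the labels, mRNA libraries of BMDMs (3 Ctr, 3 αGlu) were sequenced on a NovaSeq instrument and quantified by the authors in the QIAGEN RNA-seq Analysis Portal, and the submitters' notes name GRCm38. The library kit was stranded, but the strand setting of the counting is not given in the sources used here. The authors deposited whole-number counts per gene, which were tested, and TPM, which were used for levels between genes; their RPKM and CPM columns were not used here. Counts were filtered with filterByExpr (minimum count 10), scaled with TMM, and compared with edgeR 4.0.16 (glmQLFit, glmQLFTest, R 4.3.3) in the 2 groups, with Benjamini-Hochberg adjustment over all genes and a threshold of 0.1. DESeq2 1.42.0, other scalings, no filter, a replicate block and leaving out each library were tried. The fits were tested on simulated data. p-values measure only the spread between these libraries. Gene positions are from GENCODE M21. Members and lists were chosen with earlier results of these data known. Values per library are given, by role, for the 2 members with the smallest unadjusted p, the most abundant by TPM, 16 set factors and 3 other translation genes. Sequence features were counted after the expression values had been seen.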

Additional observations from a re-analysis of the deposited data

How the results depend on the processing

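With all 6 libraries and edgeR, 0 genes and 0 members were called. DESeq2 called 2179 genes, 1 member higher and 4 lower. Adding a replicate block called 17 genes and no member. The main fit did not pair libraries by replicate number, and whether the numbers mark pairs was not settled. For fragment levels in BMDMs the paper used a paired t-test, and it does not state pairing for the sequenced libraries. The deviations of same-numbered libraries correlated at 0.0764, 0.0646 and 0.154, and only Ctr 3 and αGlu 3 passed 0.1. Those of differently numbered libraries correlated at -0.112 to 0.0459. Each same-numbered value was thus the highest for both of its libraries, which pairing would also give. Members below all Ctr libraries went from 11 to 7 with library size alone. Leaving out 1 library moved all genes called between 0 and 6055, members called higher between 0 and 17 and lower between 0 and 14, members above all Ctr libraries between 6 and 24, and members below between 12 and 22. The highest value of each came without αGlu 1, and the 14 members above all Ctr libraries without Ctr 3 were the other change past 1.5 times. The median log2 fold change of members stayed between -0.04 and 0.06 in every setting, changing sign with library size alone (0.06) and without Ctr 3 (0.00). None of the 30 named genes changed direction under 11 alternatives. Of these 330 values, 298 kept their side of the threshold and 32 passed it, 24 without αGlu 1 and 8 by DESeq2. Of the members, 2 had fewer than 100 counts in some library.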
